A study of Mus musculus with 4 samples.

Results

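AP-1 is a family of paired transcription factors built from FOS, JUN and ATF proteins, and 8 of its genes were followed here in cells sorted from the mouse thoracic aorta: Fos, Fosb, Fosl1, Fosl2, Jun, Junb, Jund and Atf3. They were the genes in the table whose Ensembl identifier maps to those symbols, and all 8 were found among its 32948 genes. The mice carried Wnt1-Cre and the Rosa26-mTmG reporter. In such mice Cre is made under the Wnt1 promoter, which is active in the neural crest, and a cell that made Cre, with its descendants, loses membrane tdTomato and shows membrane GFP. GFP therefore marks cells with a history of Cre and tdTomato marks cells without it. Every group shared this genotype, and no animal without Cre and no age was given in the labels.

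The ascending aorta and aortic arch were minced and digested with DNase I, collagenase IV and dispase in successive steps of 30, 60 and 90 minutes, strained, freed of red cells and sorted by colour. A single female sample made up 1 suspension and 2 pooled male samples the other. Each suspension gave a GFP and a tdTomato library, 4 in all, and no group has more than 1. Sex, pooling and suspension cannot be told apart. No sample of undigested aorta was analysed here, so the part that digestion and sorting play in the levels given here was not tested.

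FOS proteins (Fos, Fosb, Fosl1, Fosl2) bind DNA only when paired with a JUN protein, whereas JUN proteins (Jun, Junb, Jund) also pair among themselves, and ATF3 pairs with itself or with JUN proteins. Fos, Fosb, Jun, Junb and Atf3 are early response genes, whose transcription starts within minutes of a growth factor, stretch or injury signal through MAP kinases, without new protein synthesis. Their RNAs are short-lived. In the artery wall, AP-1 is known for its activation in smooth muscle cells after injury, and enzymatic digestion of tissue is known to raise early response RNAs.

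The promoters of 5 early response members are shown because early response genes are known to be switched on through short elements near their start. The sequences are the 150 bases before the transcript start, from RefSeq for GRCm38.p6, an earlier build than the GRCm39 used for the counts. Capitals mark 4 elements. They are the core of the cyclic AMP response element, TGACGT, which is read on the other strand in Atf3, and the shorter form TGACG. The TATA box was searched as TATAAA. The last, TGACATCA, is a variant of the AP-1 site known from the Jun gene.
Fos, chr12:85473740-85473889, plus strand: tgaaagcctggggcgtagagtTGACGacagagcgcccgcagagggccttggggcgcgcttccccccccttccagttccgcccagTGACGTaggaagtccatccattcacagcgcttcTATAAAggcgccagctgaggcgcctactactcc
Fosb, chr7:19310046-19310195, minus strand: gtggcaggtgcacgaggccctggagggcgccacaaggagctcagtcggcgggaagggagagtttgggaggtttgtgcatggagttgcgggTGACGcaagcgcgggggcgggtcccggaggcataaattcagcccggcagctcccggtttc
Jun, chr4:95052223-95052372, minus strand: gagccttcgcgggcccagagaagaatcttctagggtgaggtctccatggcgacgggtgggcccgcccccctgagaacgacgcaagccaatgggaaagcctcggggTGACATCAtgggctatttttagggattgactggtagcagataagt
Junb, chr8:84978749-84978898, minus strand: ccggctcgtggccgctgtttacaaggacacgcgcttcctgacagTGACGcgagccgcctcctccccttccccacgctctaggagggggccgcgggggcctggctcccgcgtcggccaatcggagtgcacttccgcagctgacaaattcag
Atf3, chr1:191183334-191183483, minus strand: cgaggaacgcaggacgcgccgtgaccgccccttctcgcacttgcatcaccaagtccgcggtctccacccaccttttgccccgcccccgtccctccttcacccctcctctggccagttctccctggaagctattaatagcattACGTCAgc

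On both strands of the 250 bases before the start, TGACGT stood in Fos and Atf3 and in 6.47% of 32851 promoters of the same length. In Fos it began 66 bases before the start, above a TATAAA that began 33 bases before it. The Atf3 match ended 3 bases before the start. TGACATCA stood in Jun, 45 to 38 bases before the start, and in 2.93% of all promoters. The shorter TGACG, which lies within TGACGT, stood in Fos, Fosb, Junb and Atf3 and in 17.8% of all promoters. The AP-1 site TGAGTCA (4.46% of all promoters), the full element TGACGTCA (1.55%) and the CArG box bound by serum response factor (1.47%) were found in none of the 7 members listed in the table, that is, all but Fosl1. These matches describe letters in a window and are neither sites nor causes. Bases farther than 250 before the start were not searched, so an element absent here may lie beyond them. The Atf3 start used lies 34706 bases inside the gene as GENCODE M21 draws it, and the Jund start 1210 bases before GENCODE's, so no Jund sequence is shown.

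The libraries held 10094326 to 13911281 estimated counts. Of genes reaching 10 counts there were 11942 and 16136 in the female GFP and tdTomato libraries, and 9439 and 15593 in the male ones. Of 2491 genes at 50 CPM (counts scaled to library size) or more in both tdTomato libraries, 1.00% were at 0 in female GFP and 5.42% in male GFP. The labels call all 4 libraries vascular smooth muscle cells. All 10 smooth muscle markers were present in every library, with a summed level of 14162 to 20229 CPM, led by Acta2, Myl9 and Tagln. Of 10 endothelial markers, 9 were at least 2-fold lower in the GFP cells of each suspension (22.9% of all genes were), with sums of 58.2 to 64.9 CPM in GFP and 284 to 436 CPM in tdTomato. Cdh5 and Tek, which define endothelium, had 0 or 1 count in each GFP library, whereas Pecam1 kept 192 and 111 counts in female and male GFP. The remaining marker, Flt1, was higher in GFP and made up most of the GFP sums. It had 48.3 CPM in GFP against 36.1 in tdTomato in females, and 45.6 against 27.0 in males. Fibroblast markers summed to 2310 CPM in male GFP and 4491 to 5294 CPM elsewhere, but the markers differed: Dcn stood at 153 CPM in male GFP against 1920 to 2236 CPM, and Col3a1 was highest there, with 1693 CPM against 607 to 1077 CPM. Macrophage markers summed to 0.639 CPM in male GFP, 152 CPM in its tdTomato counterpart, and 30.6 and 30.3 CPM in the female libraries. Of the 152 CPM, 65.4 came from Ptprc, with 909 counts there and 0 to 2 counts in each other library. Ptprc did not pass the filter on low counts. The close female sums rested on different mixes of markers. Cd14 (24.1 CPM) and Csf1r (6.41 CPM) made up nearly all of the female GFP sum, where 6 markers had 0 counts. In female tdTomato 1 marker had 0 counts. Of 7 tested macrophage markers, 5 stood 2-fold or more below tdTomato in the female and the male suspension alike. Cd14 and Csf1r exceeded tdTomato in the female pair only. In bulk libraries, fewer cells of a type and less RNA per cell cannot be told apart.

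The 8 AP-1 genes together took 1.55% of all counts in the GFP and 1.11% in the tdTomato cells of the female, and 0.870% and 0.999% in those of the male pool. After scaling by trimmed means (TMM), their sum was 16820, 10339, 9347 and 9227 CPM in the same order. Female GFP stood above the other 3 libraries, which lay close together.

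Fos (ENSMUSG00000021250) made up most of that sum. Its level was 13819 CPM in the GFP and 8293 in the tdTomato cells of the female, and 7828 and 6676 in those of the male pool. It was among the 3rd to 7th most abundant genes of every library by CPM, and held 76.7% to 86.6% of the members' TPM, a measure of transcripts in which counts are also divided by transcript length. With TMM the female libraries were above the male ones, and within each suspension GFP was above tdTomato. With DESeq2's size factors male GFP (8687 CPM) stood above female tdTomato (7772 CPM). The GFP level was 1.67 times that of tdTomato in females (95% interval from counting error 1.65 to 1.68) against 1.17 times in the male pair (1.16 to 1.18). The male pair's log2 ratio depended on the scaling. It was 0.23 with TMM, 0.01 on library totals and 0.47 with DESeq2's size factors. On the log2 scale the mean difference was 0.48 ± 0.36 (SD, n = 2 pairs), and edgeR's quasi-likelihood test gave an adjusted p of 0.583. In fits that left out 1 library the log2 difference was 0.14 without female GFP and 0.91 without male GFP. All such fits, called unpaired here, had no term for suspension or, between the sexes, for colour. Colour and suspension are thus mixed in them. Between male and female the mean difference was -0.57 ± 0.36 (SD, n = 2 colours, edgeR adjusted p = 1), and without female GFP it was -0.14. Counting intervals cover counting error only, since PCR copies were not marked by molecular identifiers.

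Fosb (ENSMUSG00000003545), a close relative of Fos that is induced by the same signals, stood far lower. It had 781 CPM in the GFP and 451 in the tdTomato cells of the female, and 533 and 585 in those of the male pool. Female GFP was the highest and female tdTomato the lowest. The GFP level was 1.73 times that of tdTomato in the female pair (1.68 to 1.79) against 0.911 times in the male pair (0.879 to 0.943). With DESeq2's size factors in place of TMM the male pair's log2 ratio turned from -0.14 to 0.10, so its direction depended on the scaling. The table holds 1 value per gene, so the long and the short FosB protein forms cannot be told apart.

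Fosl1 (ENSMUSG00000024912), which encodes FRA1 and is usually a later and weaker responder, was the only member with counts of 0. It had 282 counts in female GFP and 47 in female tdTomato, and 0 in both male libraries. These are 22.3 and 3.14 CPM, and GFP was 7.11-fold above tdTomato in the female pair (5.20 to 9.89). A count of 0 allows up to 3 counts, that is, 0.319 CPM in the GFP and 0.216 CPM in the tdTomato library of the male pool. Against that limit per library, male GFP was at least 69.9-fold lower than female GFP, and male tdTomato at least 14.6-fold lower than female tdTomato. Between the sexes edgeR gave an adjusted p of 1 and DESeq2 one of 0.0555, both above the threshold of 0.05. All 8 members passed the filter on low counts, Fosl1 only through the female libraries, which fixed that direction. Ccdc85b, whose exons overlap those of Fosl1 on the opposite strand, had 26.6 to 54.1 CPM in the 4 libraries, and the kit does not mark strand.

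Fosl2 (ENSMUSG00000029135), which encodes FRA2, was the member that differed most among the 7 with counts in all 4 libraries. It had 135 CPM in the GFP and 206 in the tdTomato cells of the female, and 41.4 and 220.0 in those of the male pool. The tdTomato libraries were alike and above both GFP libraries, and male GFP was the lowest. GFP stood at 0.657 times tdTomato in the female pair (0.619 to 0.697) against 0.188 times in the male pair (0.169 to 0.209). The mean log2 difference was -1.51 ± 1.27 (SD, n = 2 pairs, edgeR adjusted p = 1). In unpaired fits this difference was -0.63 without male GFP and -2.29 without female GFP. Fibroblast, endothelial and macrophage marker sums were lowest in male GFP too, and their part in the Fosl2 values was not tested.

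**Figure D1:**
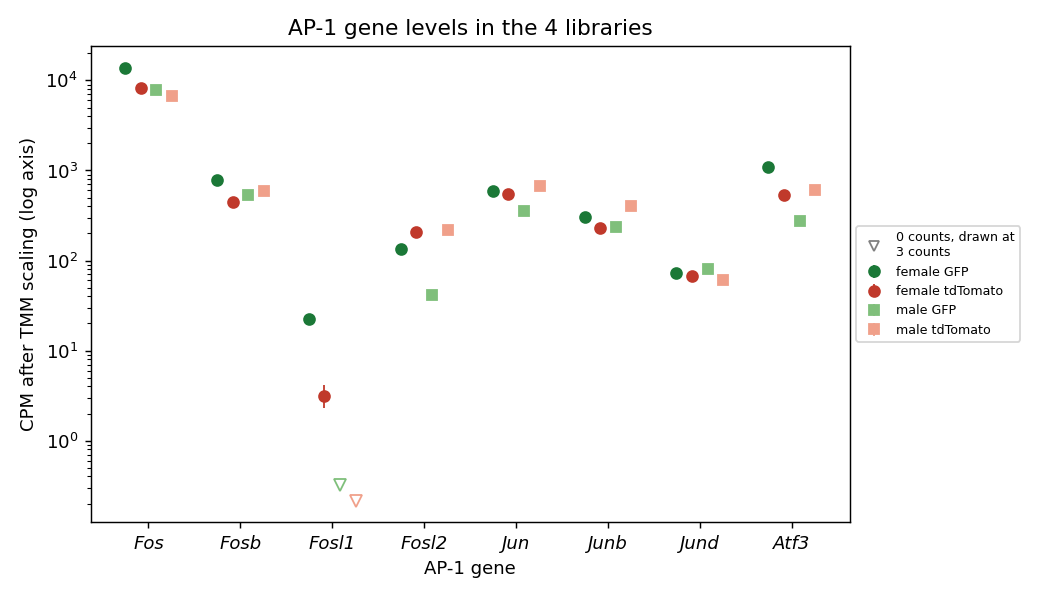
Level of each AP-1 gene in the 4 libraries as CPM after TMM scaling, on a log axis; circles are female and squares male, dark and light green GFP and dark and light red tdTomato, and bars (mostly smaller than the symbols) are 95% counting intervals. Fos lies between 6676 and 13819 CPM, the male GFP square is lowest for Fosl2, Jun and Atf3, and the open triangles for Fosl1 mark counts of 0 drawn at the level of 3 counts.

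Jun (ENSMUSG00000052684), the founding member and the usual partner of FOS, had 587 CPM in the GFP and 554 in the tdTomato cells of the female, and 355 and 679 in those of the male pool. Male GFP was the lowest and male tdTomato the highest, with the female libraries close together between them. GFP stood at 1.06 times tdTomato in the female pair (1.03 to 1.09) against 0.523 times in the male pair (0.503 to 0.544). Without TMM, on library totals, the female pair's log2 ratio turned from 0.08 to -0.14. The exons of Jun overlap those of Junos, on the opposite strand, which was not analysed here. The mean log2 difference was -0.43 ± 0.72 (SD, n = 2 pairs, edgeR adjusted p = 1), and -0.05 in the unpaired fit without male GFP.

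Junb (ENSMUSG00000052837), which is often described as a weaker activator that restrains JUN, had 306 CPM in the GFP and 231 in the tdTomato cells of the female, and 233 and 402 in those of the male pool. Male tdTomato was the highest, and female tdTomato and male GFP shared the lowest level. GFP stood at 1.33 times tdTomato in the female pair (1.27 to 1.39) against 0.578 times in the male pair (0.550 to 0.608). The mean log2 difference was -0.19 ± 0.85 (SD, n = 2 pairs, edgeR adjusted p = 1), and in the unpaired fit without male tdTomato it was 0.24. Prdx2, whose exons overlap those of Junb on the opposite strand, had 181 to 212 CPM.

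Jund (ENSMUSG00000071076), the JUN gene known for steady expression in resting cells, had 73.5 CPM in the GFP and 67.6 in the tdTomato cells of the female, and 80.9 and 60.9 in those of the male pool. The 4 libraries were close, with both GFP libraries slightly above both tdTomato libraries. Its highest level was 1.33 times its lowest. That range, 0.41 on the log2 scale, was the narrowest of the members, and 1.70% of the 3412 tested genes at a mean of 50 CPM or more had a smaller one. The median range of those genes was 2.14. GFP stood at 1.09 times tdTomato in the female pair, with an interval of 0.993 to 1.19 that holds 1, and at 1.33 times in the male pair (1.20 to 1.47). On library totals the female pair's log2 ratio was -0.10 instead of 0.12. Gm11175, which overlaps Jund on the opposite strand, was not analysed here.

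Atf3 (ENSMUSG00000026628), a stress-induced member of the ATF branch that can repress as well as activate, had 1097 CPM in the GFP and 535 in the tdTomato cells of the female, and 276 and 604 in those of the male pool. The GFP libraries were its highest and its lowest, with the tdTomato libraries close together between them. GFP stood at 2.05 times tdTomato in the female pair (2.00 to 2.11) against 0.457 times in the male pair (0.437 to 0.477). These opposite ratios left a mean log2 difference of -0.05 ± 1.53 (SD, n = 2 pairs, edgeR adjusted p = 1). In unpaired fits the log2 difference was 0.97 without male GFP and -0.97 without female GFP. Between the male and female GFP libraries the Atf3 level differed 3.98-fold (3.81 to 4.15), against 1.13-fold (1.09 to 1.16) between the tdTomato libraries.

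**Figure D2:**
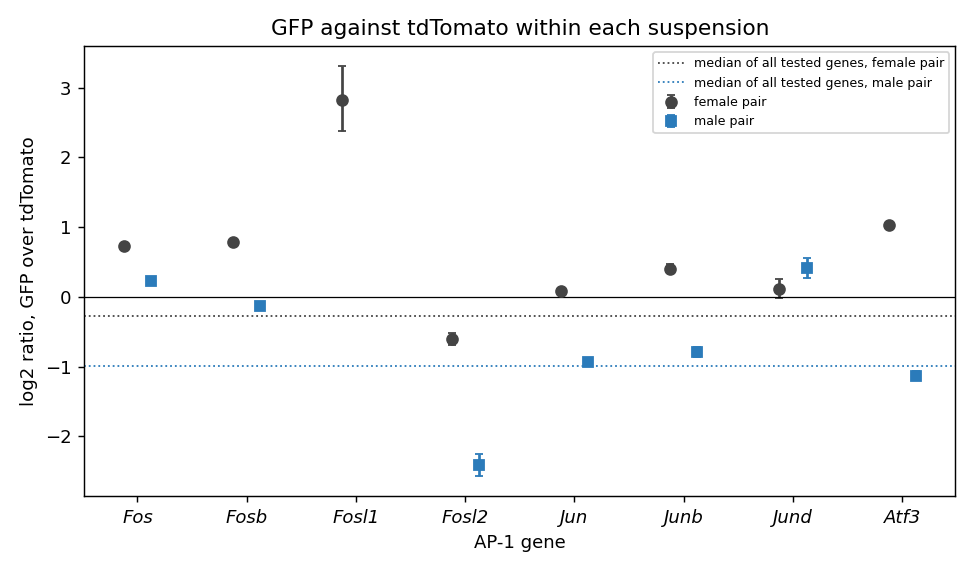
log2 ratio of GFP over tdTomato for each AP-1 gene in the female pair (black circles) and the male pair (blue squares), with 95% counting intervals, and the medians of all 15055 tested genes as dotted lines (-0.27 and -0.998). Fosb, Jun, Junb and Atf3 lie above 0 in the female pair and below 0 in the male pair, where DESeq2's size factors turn Fosb's male ratio and library totals turn Jun's female ratio; Fosl1 has no male ratio because both counts were 0.

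Against tdTomato, no member passed edgeR's test at an adjusted p under 0.05, and neither did any other gene (0% of 15055). At an unadjusted p under 0.05 edgeR's test gave 1298 genes, of which 44 were higher in GFP. DESeq2 called 7.37% of the genes and no member. Between male and female edgeR called 0%, with 262 genes at an unadjusted p under 0.05, Fos among them. DESeq2 called 0.797% and no member, and limma-voom called no gene in either comparison. For a single gene, an exact permutation test of 2 libraries against 2 cannot go below a two-sided p of 0.333.

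With 1 library a group, the pairs are described by size. In the female pair 2 of 8 members (Fosl1 and Atf3) were at least 2-fold higher in GFP, against 22% of all tested genes, and none was 2-fold lower, against 37.8%. In the male pair none was 2-fold higher (21.5% of all), and Fosl2 and Atf3 were 2-fold lower (50%). These sets and shares are with TMM. On library totals Atf3 left the female set (log2 ratio 0.82), and Jun (-1.15) and Junb (-1.01) joined the lower male set. With DESeq2's size factors Atf3 left the lower male set (-0.89). None was 2-fold apart the same way in the 2 suspensions, neither higher (5.17%) nor lower (22.9%) in GFP. With TMM, Jund was the only member with both GFP libraries above both tdTomato libraries (11.5% of all genes), and Fosl2 was the only one with both below (29.3%). With DESeq2's size factors Fos and Fosb also had both GFP libraries above. On library totals Jund left the first set, and Jun also had both GFP libraries below.

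Higher in GFP in the female pair and lower in the male pair were 4 members, Fosb, Jun, Junb and Atf3, against 26.8% of all genes; Fosb left this set with DESeq2's size factors and Jun on library totals. Male GFP was the lowest library for 3 members, Fosl2, Jun and Atf3, to which library totals add Junb, and for 40.9% of all genes. Between the GFP libraries, Fosl1, Fosl2 and Atf3 were at least 2-fold lower in male cells (40.4% of all) and none was higher (27.9%). Between the tdTomato libraries only Fosl1 was 2-fold lower (21.6%) and none was higher (20.6%). Fos and Fosl1 had both male libraries below both female libraries (18.9% of all), and no member had both above (13.7%). Fos left the former set with DESeq2's size factors, which put its male GFP level above that of female tdTomato.

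The tested genes as a whole leaned toward tdTomato: the median of their log2 ratios was -0.27 among females and -0.998 among males. Genes at 0 in 1 library of a pair carried most of that lean: over the genes with counts in both, the median was -0.0053 among females and -0.21 among males. The members' medians were 0.57 and -0.46, the latter with Fosl1 counted at 0 because both libraries lacked it, and -0.79 over the 7 members with counts. The all-gene medians shifted to -0.48 and -1.20 on library totals and to -0.15 and -0.78 with DESeq2's size factors. Over all genes tested, the members' medians lay above the all-gene medians in both pairs, whereas over genes with counts in both libraries the members' -0.79 lay below the all-gene -0.21 in males.

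Per length, Fos was the most abundant member by far. Its TPM was 10359 in the GFP and 7700 in the tdTomato cells of the female, and 8243 and 6527 in those of the male pool. Atf3 followed with 309 to 873 TPM, then Fosb with 233 to 326, Jun with 247 to 439, Junb with 249 to 458, Jund with 69.6 to 108, Fosl2 with 14.1 to 69.4 and Fosl1 with 0 to 18.9. Fos exceeded Atf3 by 10.4-fold to 26.7-fold in TPM. The ranges of Atf3, Fosb, Jun and Junb overlapped, so these 4 had no fixed order: Atf3 was above Fosb in 3 of 4 libraries, Fosb above Jun in 2 of 4 and Jun above Junb in 2 of 4. Junb was above Jund, and Jund above Fosl2, in all 4.

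FOS gene transcripts outnumbered JUN gene transcripts in every library. The ratio of summed TPM of the 4 FOS genes to that of the 3 JUN genes was 17.1 in the GFP and 12.0 in the tdTomato cells of the female, and 13.4 and 7.11 in those of the male pool. In each suspension the ratio was higher in GFP. Fos alone was 94.4% to 96.5% of the FOS gene TPM. Among the JUN genes, Jun held 38.6% to 50.8% of the TPM, Junb 37.3% to 47.1% and Jund 7.73% to 16.8%. Jund's share was highest in male GFP, where its own TPM was also highest and that of Jun lowest. These are RNA levels and say nothing of the amount of protein.

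**Figure D3:**
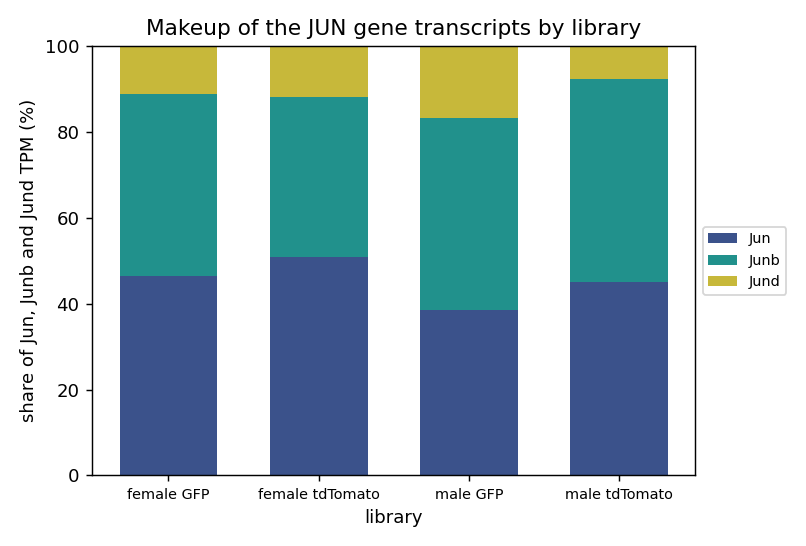
Share of the summed TPM of Jun, Junb and Jund (vertical axis, percent, stacked) held by each gene in the 4 libraries. Jund takes 16.8% in male GFP, and elsewhere 7.73% to 11.9%, and Jun ranges from 38.6% in male GFP to 50.8% in female tdTomato.

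The genes around AP-1 were read from lists of partners, upstream factors, feedback genes and targets. In edgeR's test against tdTomato no gene of these lists passed. Of 25 tested partners and relatives in the wider bZIP class, 1 (Bach1) exceeded tdTomato 2-fold or more in each pair and 5 were that much lower (Atf5, Atf6, Creb1, Bach2 and Cebpg), shares near the 5.17% and 22.9% of all genes. Bach1, a repressor that dimerizes with small MAF proteins, had 74.3 and 143 CPM in female and male GFP and 30.4 and 25.6 CPM in tdTomato. Creb1, which encodes a factor that binds the cyclic AMP response element, had 4 and 0 counts in female and male GFP against 41.9 and 49.3 CPM in tdTomato, and DESeq2 called it. The most abundant partners were Atf4, with 352 to 530 CPM, and Creb5, with 138 to 551 CPM.

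Of 19 tested upstream kinases and factors, Mapk7 and Mrtfa were at least 2-fold higher in GFP in both pairs, and Elk1, Elk4 and Rps6ka5 lower, against 5.17% and 22.9% of all genes. Some of these rest on few counts. Mrtfa had 7 counts in female GFP against 0 in female tdTomato. Rps6ka5 had 0 and 2 counts in female and male GFP against 42 and 126 in tdTomato. Mapk7, which encodes ERK5, had 12.5 CPM in the GFP and 3.34 in the tdTomato cells of the female, and 72.7 and 2.95 in those of the male pool. Mapk3, which encodes ERK1, stood at 1.39 times tdTomato in females and 4.59 times in males. Map2k1, which encodes a kinase above it, had 0 counts in female GFP but 183 CPM in male GFP, and 75.2 and 38.1 CPM in female and male tdTomato. Elk4, a partner of serum response factor, had 0 and 1 count in female and male GFP against 15.6 and 35.6 CPM in tdTomato, and DESeq2 called it.

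Feedback genes, which end the signal or remove its RNAs, included some of the most abundant genes around AP-1. Dusp1, a phosphatase that switches MAP kinases off, had 1810 CPM in the GFP and 987 in the tdTomato cells of the female, and 1321 and 1459 in those of the male pool. Zfp36, which speeds the decay of short-lived RNAs, had 539, 594, 254 and 817 CPM in that order. Of 9 tested genes in this list, none was at least 2-fold changed the same way in both pairs, and 4 (Dusp1, Dusp2, Dusp5 and Dusp6) were higher in GFP in the female pair and lower in the male pair, against 26.8% of all genes. Dusp1, with a male ratio of 0.905, left this set with DESeq2's size factors.

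Of 20 known AP-1 targets found in the table, 15 passed the filter on low counts. Among these, Plaur, the urokinase receptor gene, was at least 2-fold higher in GFP in both pairs, with 33.8 and 97.8 CPM in female and male GFP and 10.1 and 20.6 CPM in tdTomato. Mmp3, a matrix metalloprotease, Ccl2, a chemokine, and Ccnd1, a cyclin, were at least 2-fold lower in both pairs. The 1 higher and 3 lower of 15 were shares near the 5.17% and 22.9% of all genes. DESeq2 called these 3 lower genes, and 7.37% of all genes. Mmp3 had 3 and 0 counts in female and male GFP against 168 and 136 CPM in tdTomato, and Ccl2 was at 0 in GFP cells of either sex, with 50.9 and 192 CPM in tdTomato. Hbegf, a growth factor of the EGF family, followed Atf3 in being highest in female GFP (450 CPM) and lowest in male GFP (86.5 CPM). The fibroblast marker Pdgfra was likewise at 0 and 4 counts in female and male GFP and at 68.6 and 61.9 CPM in tdTomato. Of 10 fibroblast markers, 3 (Pdgfra, Col1a1 and Clec3b) stood below tdTomato by 2-fold or more in each suspension. With TMM, Dcn, Lum and Gsn exceeded tdTomato among females and fell below it among males. On library totals only Lum did so. Col3a1 went the reverse way, with 1693 CPM in male GFP against 838 CPM in male tdTomato. The part of cell composition in the Mmp3 and Ccl2 values was not tested.

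Other early response genes, 21 tested, had a median log2 ratio of 0.59 for females and -0.63 for males, close to the members' 0.57 and -0.46. The lowest library was male GFP for 12 of the 21 (40.9% of all genes). Higher in GFP in females and lower in males were 13 (26.8% of all genes), 14 on library totals and 11 with DESeq2's size factors. Egr1, a zinc finger factor induced with Fos, had 4389 CPM in the GFP and 2505 in the tdTomato cells of the female, and 2397 and 3702 in those of the male pool. Egr3, a relative of Egr1, was at 0 in GFP cells of either sex and at 67.7 and 181 CPM in female and male tdTomato. Nr4a2 went the other way, with 952 CPM in male GFP against 181 to 272 CPM. Maff and Atf4 stand in this list and among the partners.

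Heat shock genes, which answer protein damage and also rise in handled cells, were read beside them; 3 of 12 were higher in GFP in females and lower in males, a share near the 26.8% of all genes. Their 12 genes had a median log2 ratio of 0.53 in females and 0.72 in males, and their summed level was 30140 CPM in male GFP against 14634 to 21736 CPM. Hspd1, a mitochondrial chaperone, was the gene of this list at least 2-fold higher in GFP in both pairs, by 5.24-fold and 3.58-fold. Dnajb1 was 1 of the 3, with 264 CPM in male GFP against 762 to 1098 CPM elsewhere.

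**Figure D4:**
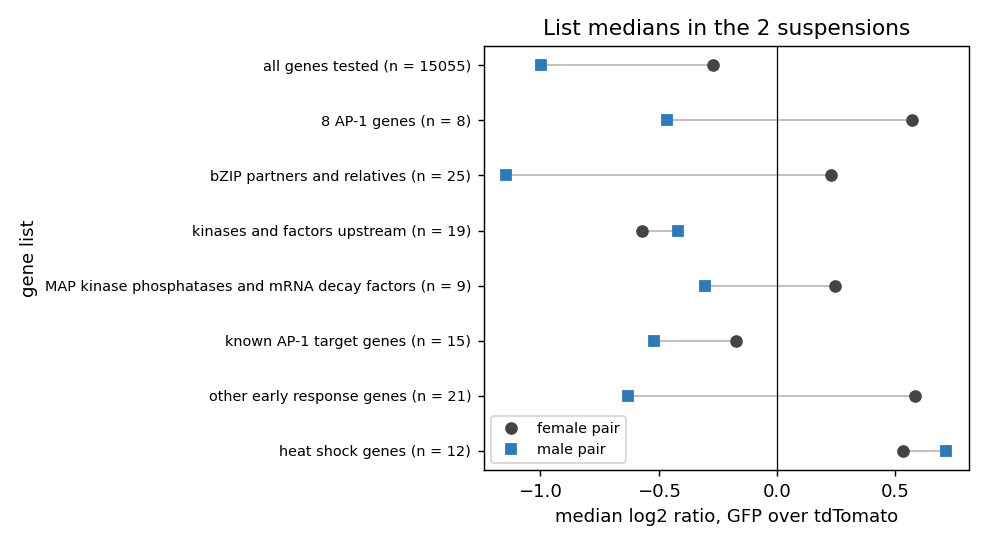
Median log2 ratio of GFP over tdTomato in the female pair (black circles) and the male pair (blue squares) for all tested genes, the 8 AP-1 genes and 6 related lists, each with its number of tested genes. The AP-1 genes (0.57 and -0.46) and the other early response genes (0.59 and -0.63) lie on opposite sides of 0, and the heat shock genes (0.53 and 0.72) lie above 0 in both pairs.

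The genes most like Fos across the libraries were sought among 3095 tested genes with a symbol and a mean of at least 50 CPM, by the root mean square difference of centred log2 levels over the 4 libraries. The nearest were Prdx4 (0.040), Rpl18 (0.048), Skp1a (0.057), Csrp2 (0.068) and Cox14 (0.068). Fosb came 171st, and the other members measured lay between places 325 and 1778. For Jun the nearest were Sparc (0.027), Mtch2 (0.075), Cds2 (0.076), Rpl6 (0.082) and Msrb3 (0.083), with Junb in place 85 and Fos in place 564. Over 4 libraries this measure describes these samples only.

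Ranges over the 4 libraries set the members in order of evenness. With TMM, after Jund (0.41 log2) came Fosb (0.79), Junb (0.80), Jun (0.93), Fos (1.05), Atf3 (1.99) and Fosl2 (2.41). The order depended on the scaling. On library totals Fos (7229 to 12757 CPM) was more even than Junb (217 to 436 CPM) and Jun (331 to 736 CPM). Of the 3412 tested genes at a mean of 50 CPM or more, 9.70% had a smaller range than Fosb, 17.8% a smaller one than Fos and 56.3% a smaller one than Fosl2. The quartiles of those genes' ranges were 1.30 and 3.81, so Jund, Fosb, Junb, Jun and Fos lay below the lower quartile, and Atf3 and Fosl2 near the middle.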

How the data were processed

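Libraries were made with SMART-Seq v4, which primes on poly(A) tails, amplifies by PCR and keeps no strand, per the labels' protocols. fastp, HISAT2, StringTie and GRCm39 were used, per the submitters' processing notes; versions, annotation and counting program are not given in the sources used here. In the table, the authors deposited expected counts (estimated counts, not normalised), 59.4% to 69.1% of them whole (tolerance 1e-06). They were rounded here. Symbols and transcript lengths came from GENCODE M21 by identifier (76.4% of genes), and 14 of 188 listed genes had no match and were not analysed here. Length and TPM thus rest on GRCm38.

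Genes were filtered with filterByExpr (minimum 10 counts), leaving 15055, all members among them, and scaled by TMM. edgeR 4.0.16 (R 4.3.3) fitted quasi-likelihood models with colour and suspension as terms, which left 1 residual degree of freedom, with Benjamini-Hochberg adjustment over all genes and a threshold of 0.05. Libraries of one suspension come from the same animals, so the suspension was the block. Log2 ratios used a prior count of 2, folds none. Intervals at 95% are exact binomial for folds and exact Poisson for levels. DESeq2 1.42.0, limma 3.58.1 (voom), other scalings, other filters, no block and each library left out were alternatives. Fits with 1 library left out held only the term tested, without the block. The code was tested on simulated data. Named genes were the members, and in other lists the 3 of highest mean CPM and those at least 2-fold different the same way in both pairs with 10 CPM in both libraries of the higher colour; Mrtfa, Elk1, Rps6ka5, Atf5, Bach2, Ccnd1, Nr4a2 and Dnajb1, among others, were named after their values were seen. The members and lists were chosen with earlier results of these data known. Among the genes the rule names, 1 is not reported here.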

Additional observations from a re-analysis of the deposited data

Results flagged for a closer look

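For 4 members the GFP to tdTomato ratio lay on opposite sides of 1 in the 2 suspensions, with neither counting interval reaching 1. The female and male ratios were 1.73 and 0.911 for Fosb, 1.06 and 0.523 for Jun, 1.33 and 0.578 for Junb, and 2.05 and 0.457 for Atf3. The difference between the suspensions was not tested, because a model with that term has no residual degrees of freedom and each ratio rests on 1 library a side. The same pattern of direction was seen in 26.8% of all tested genes. Fosb's male ratio turned with DESeq2's size factors and Jun's female ratio on library totals.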

How the results depend on the processing

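DESeq2 called 1109 genes between the colours and 120 between the sexes where edgeR called none. Without a filter edgeR called 2 genes between the sexes, Xist and a gene without a symbol. No member was called under any setting; its lowest adjusted p was 0.0909 in edgeR (Fosl2, without female GFP) and 0.0555 in DESeq2 (Fosl1). Of 174 member log2 differences 155 kept their direction and 19 turned. Between the colours, Atf3 turned to 0.27 without the replicate block, 0.13 with DESeq2 and with its size factors, and 0.32 with limma-voom. With 1 library left out, Atf3 ranged from -0.97 (without female GFP) to 0.97 (without male GFP), Fosl1 from -7.31 (without female GFP) to 10.08, and Junb from -0.58 to 0.24 (without male tdTomato). Between the sexes, leaving out 1 library gave -0.50 to 0.36 for Fosb (without female GFP), -2.05 to 0.37 for Fosl2 and -0.69 to 0.26 for Jun (both without male GFP), -0.21 (without male tdTomato) to 0.59 for Junb, and -0.21 to 0.19 for Jund. Jund, near 0, also turned to 0.0067 without a colour term, 0.056 with DESeq2 and with its size factors, and 0.0046 on library totals. Of the pair ratios, Fosb's in males became 0.10 with DESeq2's size factors and Jun's and Jund's in females -0.14 and -0.10 on library totals. The suspension block changed no call, and the cause of these turns was not tested. With 1 library left out, the lone library of a colour was assumed to vary like the others. Those fits were unpaired, so colour and suspension are mixed in their differences.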
